A study of Rattus norvegicus with 6 samples.

Results

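The probes described here report 44 PIWI-interacting RNAs (piRNAs) that were called well above background on all 3 arrays of Wistar rat islets and on none of the 3 arrays of Goto-Kakizaki (GK) rat islets. They were picked out of 39727 piRNA probes, each with 1 spot per array, by the scanner software's detection call alone. Total RNA of pancreatic islets came from GK rats, which become diabetic without obesity and descend from Wistar rats, and from Wistar rats of the same age, 3 months. Islet RNA was extracted individually, tagged at its 3′ end with the dye Cy3 and hybridised 1 sample per array, with 3 samples per strain. The labels do not say whether the samples of a strain are separate animals, so the spread between arrays may in part be technical. GK 1 and all 3 Wistar arrays were read in 1 scan and are called slide 1 here, and GK 2 and GK 3 were read in another, slide 2. No member had a spot that the software flagged as an outlier.

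piRNAs are short RNAs, somewhat longer than microRNAs, that bind PIWI proteins of the Argonaute family. They are best known from the germline, where they guide the silencing of transposons, and many arise from long single-stranded precursors that are cut into neighbouring fragments. In somatic tissues such as islets their levels are far lower than in testis, and what they do there is less well established. The islet identity of the samples could not be checked on these arrays: of 30 marker and piRNA pathway genes and marker miRNAs looked for, such as Ins1, Gcg and Piwil2, 0 had a matching probe. The 44 piRNAs are named by the accession on the array, and no target or source locus is attached to them here.

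The call is a threshold on each array's own noise, so its height differed between arrays. In every scanner file it fell at 5.00 times the additive error that the header gives for the array. On the background-subtracted spot signal, in the scanner's arbitrary units, the lowest called value was 10.4 on GK 1, 12.9 on GK 2 and 9.14 on GK 3, against 14.8 on Wistar 1, 10.1 on Wistar 2 and 8.83 on Wistar 3. Under these cutoffs 11721, 14373 and 10553 piRNA probes were called on GK 1, GK 2 and GK 3, and 9699, 11210 and 12101 on Wistar 1, Wistar 2 and Wistar 3. The 44 members make up 0.111% of the piRNA probes, and the opposite pattern, all GK and no Wistar arrays, was met by 62 probes, or 0.156%.

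The members' processed signal (background-subtracted, with low values replaced by the software's noise estimate) had a median of 8.76 on GK 1, 6.43 on GK 2 and 4.73 on GK 3. On the Wistar arrays the median was 18.1, 13.5 and 12.3. In 12 members at least 1 GK spot had no measured level: its processed signal was the noise estimate itself. This held for 0 spots on GK 1, 9 on GK 2, 5 on GK 3 and 0 on the Wistar arrays, or 14 of the members' 132 GK spots. A log2 difference of such a member depends on the noise estimate, and these spots are pointed out below where their values are given.

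DQ748190 stood apart from the rest. Its processed signal was 10.7, 4.86 and 6.74 on the 3 GK arrays, against 99.4, 257 and 192 on the 3 Wistar arrays. The lowest Wistar spot was 88.7 units above the highest GK spot, where the errors that the software gave for those spots summed to 12.8 units. The next widest gap among the members was 17.7 units, for DQ619820. The raw median pixel signal of DQ748190, with no background removed, told the same: 46, 45 and 45.5 in GK and 124, 254 and 223.5 in Wistar. At 0.960, 0.366 and 0.691 of each GK array's cutoff, the GK spots fell short of the call. A bound on the fold is therefore given beside the measured difference.

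That bound sets the Wistar mean against, for each GK array, the higher of the probe's own signal and the lowest signal of any called probe. It is taken after scaling each array to its 75th percentile over the probes called on all 6 arrays. On the processed signal called and uncalled probes overlap. The lowest called value was 9.20, 10.6 and 8.07 on GK 1, GK 2 and GK 3, while uncalled probes reached 12.0, 16.2 and 10.8. A higher floor would give equal or smaller folds, so each fold given below as a minimum holds for this floor and this scaling. DQ748190 was at least 13.4-fold lower in GK. In RNA of whole islets, fewer cells of a type and less of an RNA per cell cannot be told apart. The measured scaled log2 signal was -4.52 ± 0.39 in GK and -0.32 ± 0.85 in Wistar (SD, n = 3 each), a log2 difference of -4.21. Relative to the Wistar mean, GK 1 on the slide of the Wistar arrays lay at -3.90 log2 units, and GK 2 and GK 3 on the other slide lay at -4.64 and -4.08. With normexp background correction of the raw signals the difference was -1.40. That method models signal and noise jointly. Here an offset of 50 units was added to every corrected signal, before the same scaling of the arrays. An offset of this size, above the processed signals of most members, by itself pulls dim log2 differences towards no change. In the authors' deposited table the downward fold of DQ748190 is 19.5.

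A further 3 members were at least 2-fold lower in GK by the same bound. DQ619820 had processed signals of 9.65, 12.3 and 3.23 in GK, against 29.9, 31.8 and 64.4 in Wistar. Every Wistar spot was above every GK spot, and Wistar 3 was the brightest. It was at least 3.07-fold lower in GK, with a measured log2 difference of -2.06, but its GK 2 spot reached 0.998 of that array's cutoff. Of all members this was the one nearest to being called in GK. DQ758053 had 5.72, 9.28 and 9.46 in GK and 41.8, 33.9 and 17.8 in Wistar, and was at least 2.31-fold lower, with GK 3 at 0.986 of its cutoff. DQ731610 had 8.70, 2.73 and 1.87 in GK and 28.9, 26.0 and 19.2 in Wistar, and was at least 2.02-fold lower. Its GK 2 value (2.73) and its GK 3 value (1.87) are both noise estimates, so GK 1 alone gave a measured level. In Wistar its scaled log2 signal was -3.12 ± 0.24 (SD, n = 3), where the members' median Wistar SD was 0.29. With normexp the log2 differences of these 3 were -0.31 for DQ619820, -0.06 for DQ758053 and -0.19 for DQ731610.

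Between 1.5-fold and 2-fold lay 6 more members. DQ602166 was at least 1.94-fold lower in GK, with 6.69, 2.45 and 5.59 in GK against 19.1, 14.4 and 46.6 in Wistar, where Wistar 3 carried much of the mean. The GK 2 value of DQ602166 is a noise estimate. DQ602949 was at least 1.86-fold lower, at 8.73, 8.33 and 8.41 in GK and 34.9, 15.2 and 22.3 in Wistar. Its 3 GK arrays agreed more closely than those of most members, with an SD of 0.23 log2 units against a median GK SD of 0.61. DQ621405 had 7.88, 6.97 and 1.92 in GK and 26.2, 32.1 and 12.0 in Wistar, for a bound of 1.79-fold. DQ621204 had 9.91, 6.92 and 2.02 in GK and an even 19.4, 22.5 and 20.2 in Wistar, for a bound of 1.67-fold. The GK 3 values of DQ621405 and DQ621204 are noise estimates. DQ766529 (9.84, 4.58 and 6.56 in GK against 24.8, 20.0 and 14.5 in Wistar) was at least 1.57-fold lower. DQ764870 was at least 1.53-fold lower, with 8.89, 5.42 and 5.92 in GK and 14.0, 13.7 and 32.5 in Wistar, so that its bound rested on the Wistar 3 spot more than on the others.

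For the remaining 34 members the bound was under 1.5-fold. The median bound over all 44 was 1.17-fold, and for 6 members no fold can be given because the Wistar mean did not exceed the GK level used for the bound. The members nearest to the call on the Wistar side were DQ758965, DQ626210, DQ737415 and DQ748214, whose lowest Wistar spot was at 1.00, 1.01, 1.01 and 1.01 times its cutoff. DQ737415 had 9.73, 2.47 and 1.76 in GK against 21.8, 9.82 and 8.41 in Wistar. Its GK 1 spot was thus brighter than its Wistar 3 spot, while the higher noise cutoff of GK 1 left it uncalled. Its GK 2 and GK 3 values are noise estimates. DQ758965 had 10.3, 11.3 and 6.87 in GK and 22.5, 11.5 and 12.8 in Wistar, so GK 2 nearly reached Wistar 2. DQ626210 (5.83, 2.72 and 5.67 in GK, 21.0, 9.79 and 8.27 in Wistar) and DQ748214 (9.09, 3.29 and 1.85 in GK, 14.5, 10.3 and 11.6 in Wistar) did not overlap by processed signal. By raw signal both did. DQ626210 had 42, 40 and 43 in GK against 58.5, 44 and 40.5 in Wistar, and DQ748214 had 42.5, 42 and 37 against 48, 42 and 41.

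Over the whole group the distance to the cutoff was small. In 19 of 44 members the lowest Wistar spot was within 1.1 times its cutoff and in 39 within 1.5 times, and in 33 its margin over the cutoff was smaller than the error of that spot. The highest GK spot was above 0.9 of its cutoff in 22 members and above 0.75 in 38. Spot errors of the members had medians of 2.30, 2.71 and 1.94 units on the GK arrays and 3.49, 2.45 and 2.21 units on the Wistar arrays. Set against these, the gap between the lowest Wistar and the highest GK spot exceeded the sum of the errors of those spots in 12 members. These were DQ748190, DQ619820, DQ731610, DQ621204, DQ758053, DQ602166, DQ747687, DQ602949, DQ738424, DQ749828, DQ764870 and DQ766529. The share over all tested piRNAs is not given for this gap, and the members' rule favours it. The count therefore describes the members and tests nothing.

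Missing the call was not in itself an absence of signal. The software also gives a weaker call, that a spot is positive and significantly above background. On GK 1 all 44 members met it, on GK 2 35 and on GK 3 39. The call is a common one: of all 39727 piRNA probes, 22101, 27891 and 21477 met it on these arrays. In total 32 of the 44 met the weaker call on all 3 GK arrays, 10 on exactly 2 and 2 on exactly 1 (DQ731610 and DQ737415). Of the 22638 piRNA probes called well above background on no GK array, 13.2% met it on all 3, and of the 8819 called well above background on all 3 Wistar arrays 99.4% did. The members belong to both sets, and their share lay between these. The label "detected in Wistar islets only" is therefore used here only in the sense of the stricter call.

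How far the strains separated depended on which form of the signal was read. By the processed signal every GK array was below every Wistar array for 38 members. Over all 11314 tested piRNAs, those called on at least 3 arrays, the share was 13.2%, and the members' rule itself uses this contrast, so nothing follows from the difference. The remaining 6 overlapped (DQ730176, DQ737415, DQ612026, DQ617937, DQ619665 and DQ757200), and in each of them the Wistar 3 spot, on the array with the lowest cutoff, was at or below the highest GK spot. After scaling, 27 members stayed separate (5.23% of tested piRNAs), and by the raw pixel signal 16 did (9.43%). With normexp 2 did, DQ748190 and DQ731610 (3.06%).

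The 16 members that separated by raw signal include DQ748190, DQ731610, DQ619820, DQ602166, DQ621204, DQ758053, DQ766529 and DQ764870, described above. The others are DQ747687, DQ749828, DQ738424, DQ752425, DQ749080, DQ748058, DQ743878 and DQ765695. DQ747687 had 5.43, 2.45 and 2.18 in GK and 15.1, 12.3 and 17.0 in Wistar, for a bound of 1.22-fold. Its GK 2 value is a noise estimate, as is that of DQ738424. DQ749828 (6.14, 3.00 and 2.33 in GK, 17.4, 12.5 and 13.3 in Wistar) and DQ738424 (8.78, 2.72 and 5.05 in GK, 17.3, 15.2 and 15.8 in Wistar) were likewise below every Wistar array on each GK array and even across the Wistar arrays. The SD over the Wistar arrays was 0.10 log2 units for DQ749828 and 0.06 for DQ738424.

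On the scaled log2 scale all 44 members had a lower mean in GK, as the rule makes likely. The log2 difference ran from -4.21 to -0.19 with a median of -1.04, where the median over all 11406 tested probes was 0.17. Leaving out the scaling between arrays moved every difference by -0.38, to a median of -1.42 for the members and -0.22 over all tested probes. In the limma fit over all tested probes 0 of 44 members passed an adjusted p of 0.05, where 0.00877% of all tested probes passed in that direction. DQ748190 was nearest, at an adjusted p of 0.0528 in limma, and its call changed with the settings. It passed with arrays scaled on every non-control probe (0.00820), without scaling (0.0357), with trend and robust eBayes (0.0309) and with outlier spots kept (0.0498), and did not in the other 13 alternative fits, where the adjusted p lay between 0.0609 and 0.847. DQ731610 passed in 1 alternative, without GK 1 (0.0475), where its GK values are the pair of noise estimates. At an unadjusted p under 0.05, 23 of the 44 were lower in GK, against 2.81% of all tested probes. This count was 1 with normexp (3.25% of all tested probes), 9 with the slide as a block (1.02%) and 13 within slide 1 (0.983%). It was 38 without scaling (8.94%), 39 with quantile normalization (5.99%), 40 with arrays scaled on every non-control probe (9.64%) and 43 with the authors' matrix values (6.35%). With trend and robust eBayes it was 15 (3.30%), and without Wistar 1 it was 14 (2.99%). The methods' t-test on the deposited matrix gave 0 members after Benjamini-Hochberg adjustment and 31 before it. For that test the share over all probes is not given. In that matrix 32 members sat at the array's lowest value on at least 1 GK array, which can affect their GK spread. The members were chosen on the same 6 arrays and the same contrast, so these counts describe them and test nothing.

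With normexp, its offset of 50 units and the scaling between arrays that followed, the direction turned for most members. Then 8 were lower in GK (DQ748190, DQ731610, DQ619820, DQ602166, DQ621405, DQ730176, DQ758053 and DQ764870), and 36 were higher, with a median log2 difference of 0.13 where all tested probes had 0.22. That scaling moves every difference by the same amount, and its part in the turn was not tested. DQ766529 was at 0.0060, though each raw GK signal (43.5, 41 and 42) was below each raw Wistar signal (57.5, 54 and 47). The largest positive values were 0.26 for DQ758965, 0.25 for DQ757200 and 0.22 for DQ761122. DQ757200 had 10.6, 13.0 and 6.55 in GK and 20.5, 13.1 and 11.2 in Wistar, with raw signals of 48, 53 and 46 in GK and 53, 49 and 44.5 in Wistar. Its raw values overlapped, with the GK 2 spot as bright as Wistar 1 and brighter than Wistar 2 and Wistar 3. DQ761122 had 9.71, 3.59 and 6.30 in GK and 15.3, 10.9 and 11.2 in Wistar, with raw signals of 44, 42 and 42 in GK and 48, 44.5 and 43 in Wistar.

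Single arrays contributed unequally. Among the GK arrays GK 1 had the highest processed signal in 30 members, GK 2 in 11 and GK 3 in 3, and the lowest signal, noise estimates included, was on GK 3 in 24, GK 2 in 16 and GK 1 in 4. The median distance from the Wistar mean was -0.71 log2 units on GK 1, within slide 1, -1.07 on GK 2 and -1.15 on GK 3. GK 1 was below the Wistar mean for all 44 members, GK 2 for 39 and GK 3 for 43. Wistar 1, with the highest cutoff, was the brightest Wistar array in 33 members by processed signal and in 25 after scaling. As slide 2 holds GK samples only, what GK 2 and GK 3 add to the difference cannot be told apart from the slide.

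Members did not keep 1 order across arrays. Over the 43 members other than DQ748190, the Spearman correlation of scaled signals between GK arrays was 0.20 for GK 1 and GK 2, -0.13 for GK 1 and GK 3, and 0.10 for GK 2 and GK 3. Between Wistar arrays it was 0.42 for Wistar 1 and Wistar 2, 0.11 for Wistar 1 and Wistar 3, and 0.48 for Wistar 2 and Wistar 3. The points share an array and a floor set by the call, the GK values include noise estimates, and the correlations are descriptions over probes.

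The probes next to the rule's threshold had values like those of the members, and others 1 call away lay farther from it. Called on all 3 Wistar arrays and on 1 GK array were 358 piRNAs, and that 1 array was GK 1 for 304, GK 2 for 34 and GK 3 for 20. The called GK spot was at a median of 1.47 times its cutoff, and in 187 of the 358 within 1.5 times. The nearest of them were DQ730500 and DQ746988, whose GK 1 spots both reached 1.00 times the cutoff. DQ730500 had 10.6, 2.54 and 4.79 in GK against 18.9, 11.4 and 12.1 in Wistar, with a noise estimate on GK 2. Called on 2 Wistar arrays and no GK array were 235 piRNAs, of which 152 missed on Wistar 1. Their uncalled Wistar spot was at a median of 0.689 of its cutoff, and in 88 of the 235 above 0.75. DQ738375 came nearest, with 4.71, 2.70 and 1.85 in GK and 17.8, 10.7 and 11.1 in Wistar, where Wistar 2 reached 0.997 of its cutoff and the GK 2 and GK 3 values are noise estimates. DQ616350 was next, with 4.76, 3.31 and 5.50 in GK and 14.0, 9.37 and 8.43 in Wistar, and Wistar 2 at 0.993.

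A single cutoff for all 6 arrays, tried after seeing the data, chose largely different probes. At the lowest of the 6 cutoffs (8.83 units) 65 piRNAs met the rule, 15 of them members, and at the highest (14.8 units) 67 did, 8 of them members. The 8 were DQ748190, DQ619820, DQ758053, DQ731610, DQ764870, DQ621204, DQ738424 and DQ753593. DQ731610 and DQ738424 met the rule at both cutoffs, and 23 members at neither.

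The members were also looked at beside their neighbours in the accession series and on the array. By accession block, 15 members (34.1%) belong to DQ6 and 29 (65.9%) to DQ7, against 38.2% and 61.8% of all piRNA probes. DQ753593 and DQ753594 are the 1 pair of members with consecutive accessions. DQ753593 had 7.23, 12.4 and 8.01 in GK against 17.9, 19.9 and 15.8 in Wistar, and DQ753594 had 9.63, 11.8 and 2.83 in GK against 19.0, 13.4 and 24.6 in Wistar. In both, GK 2 was the brightest GK array. Of the 63 probes on the array that are 1 accession step from a member, 20.6% were called on all 6 arrays and 41.3% on none, where the shares over all piRNA probes were 19.4% and 53.5%.

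In 17 of these 63 neighbours the call was met on all 3 Wistar arrays, and 4 of the 17 were called on fewer than 3 GK arrays. Those 4 are the pair above and the probes after DQ619820 and DQ749828. DQ619821 had 13.2, 21.4 and 8.66 in GK against 41.8, 35.2 and 78.7 in Wistar. As in DQ619820, Wistar 3 was the brightest array, GK 2 the brightest GK array and GK 3 the dimmest, and every Wistar spot was above every GK spot. DQ749829 had 10.9, 11.7 and 13.2 in GK and 16.4, 15.6 and 10.2 in Wistar, which overlap. The probes on either side of DQ602166 were called on all 6 arrays, DQ602165 at 198, 109 and 120 in GK against 219, 221 and 251 in Wistar, and DQ602167 at 171, 152 and 111 in GK against 121, 108 and 69.5 in Wistar.

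By place on the array, 16, 6, 10 and 12 members lay in 4 successive blocks of equal height on its grid of 532 rows, each of which held between 24.6% and 25.3% of the piRNA probes. In 38 members none of the 6 nearest spots exceeded 1000 units on any array. For DQ748190 the brightest of the 6 nearest spots was 396, 442 and 369 on the GK arrays and 648, 443 and 354 on the Wistar arrays. For DQ619820 it lay between 1181 on GK 3 and 4425 on Wistar 1, and its part in the DQ619820 signal was not tested.

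The authors' own values gave a similar picture for part of the group. Their deposited matrix of normalized log2 values holds all 44 members, at a median log2 difference of -1.19. In it 32 members sat at the lowest value of the array on at least 1 GK array (0 on GK 1, 17 on GK 2 and 23 on GK 3) and 0 on any Wistar array. The share of all the matrix's piRNAs at that value is not given, and the fold of such a member depends on it. The authors' deposited table, which lists folds of at least 2 at an unadjusted p of at most 0.05, holds 27 of the 44 members, all as lower in GK, where 1.19% of the matrix's piRNAs are so listed. The fold in the authors' deposited table was 19.5 for DQ748190, 5.51 for DQ619820, 3.96 for DQ731610, 3.81 for DQ758053 and 3.62 for DQ621405. Over the 27 members in the authors' deposited table its median was 2.63. Both come from these 6 arrays and do not bear on the members independently.

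For scale, the members were set beside the 62 piRNAs with the opposite pattern. By the same bound 4 of the 44 members were at least 2-fold lower in GK, whereas 43 of the 62 were at least 2-fold higher. The members' median log2 difference was -1.04 by scaled signal and 0.13 with normexp, against 2.02 and 0.56 for the 62. The processed signal of the 62 had medians of 16.2, 21.1 and 12.2 on the GK arrays and 7.27, 5.95 and 4.78 on the Wistar arrays. Leaving out the scaling between arrays moves the differences of both sets by -0.38. Both sets were chosen on this contrast, so they are described side by side and not tested.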

How the data were processed

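Spot intensity values were read from 6 scanner files deposited by the authors, made with Agilent Feature Extraction 11.0.1.1 per the file headers. Their processed signals have the background removed but carry no normalization across arrays. The deposited matrix holds the authors' log2 values, with the normalization not given in the sources used here. The deposited table lists, per the file header, each piRNA's fold (a ratio) with the p-value of the authors' unpaired test, and 6 per-sample columns of it were not used. The flag columns of the deposited files (other) are 0 or 1 per spot.

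Flagged spots were left out, and log2 processed signals were scaled to each array's 75th percentile over probes called on all 6 arrays. The normexp signals were scaled in the same way after their offset. Probes called on at least 3 arrays were fitted with limma 3.58.1 in R 4.3.3 (lmFit, eBayes, strain only, Benjamini-Hochberg). All adjusted p values come from it. The fit was also run on simulated arrays, with noise equal for all probes and below the median of the data. These held no noise estimates and no slide effect, so the run does not bear on the members. A spot was taken to hold the noise estimate where it failed the weaker call and its signal equalled the software's error for it within 1%. The number of arrays limits the precision.

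The members and lists were chosen with earlier results of these data known. Named members were the 10 with the highest bound, the 4 nearest to the cutoff, the 3 lowest and 3 highest under normexp and the 5 largest folds of the authors. Others named were chosen after their values were seen. Sequences and coordinates of the piRNAs were not used here.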

Additional observations from a re-analysis of the deposited data

How the results depend on the processing

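Signal over background limits these results: in 42 of the 44 members the lowest Wistar spot was within 2 times its cutoff, and the rule rests on cutoffs that differ between arrays. The number of members was 44 with flagged spots left out, 104 by the weaker call of a positive and significant spot, 126 within slide 1, and 65 and 67 with 1 common cutoff at the lowest and highest of the 6 (chosen after seeing the data). Leaving out 1 array gave between 64 (without GK 3) and 348 (without GK 1, the GK array of slide 1), with 78 without GK 2 and 196, 84 and 87 without Wistar 1, 2 and 3, since a rule over fewer arrays is easier to meet.

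The members' median log2 difference, -1.04, was 0.13 with normexp, -1.54 with quantile normalization, -1.52 when arrays were scaled on every non-control probe, -1.42 without scaling and -0.71 with the slide as a block or within slide 1. Without 1 array it ran from -1.12 to -0.84. It was -1.19 with the authors' matrix values. With normexp and the scaling after it, the difference of DQ602949 was 0.031, of DQ621204 0.0082, of DQ766529 0.0060, of DQ758965 0.26, of DQ626210 0.13, of DQ737415 0.075, of DQ748214 0.20, of DQ761122 0.22 and of DQ757200 0.25. The cause, and the part of the scaling in it, was not tested. Among 272 values of the 16 named members under 17 alternative fits, those 9 turned direction, 32 moved by more than the SD between arrays and 231 moved by less. The 231 are no measure of robustness. Trend and robust eBayes, no filter on dim probes and the replicate block cannot change a log2 difference. Keeping outlier spots hardly changed any, and the slide block and slide 1 gave the same values.

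The limma fit put 5 of all tested probes past an adjusted p of 0.05, and 1217 met an unadjusted p under 0.05 with a fold of at least 1.5, 901 higher and 316 lower in GK. The split of the looser count was 167 higher and 1099 lower with arrays scaled on every non-control probe, 235 and 1020 without scaling, 352 and 677 with quantile normalization and 404 and 715 with the authors' matrix. Within the members, the number lower at an unadjusted p under 0.05 ran from 1 with normexp to 43 with the authors' matrix, against 23, and the adjusted call of DQ748190 or DQ731610 changed in 5 alternatives. With normexp these counts were 15 and 615, with arrays scaled on every non-control probe 14 past the adjusted threshold, with outlier spots kept or with trend and robust eBayes 8, with the authors' matrix 2 and by the methods' t-test 1. With quantile normalization 0 passed, without the filter on dim probes 0 and 2510, with the slide as a block 0 and 408, and within slide 1 0 and 389. Without 1 array they ran from 0 to 21 and from 597 to 2512, the higher ends being those without GK 1. The replicate numbers share nothing that the labels state, and the correlation of same-numbered deviations was -0.026, 0.039 and 0.039, with GK 1 correlating best with Wistar 2 (0.092). With the replicate block 0 probes passed the adjusted threshold and 1271 the looser one. The members' median was again -1.04, as a block balanced over the strains cannot change it.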
